A study of Mus musculus with 12 samples.

Results

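The Hox cluster genes are the homeobox genes of the Hoxa, Hoxb, Hoxc and Hoxd clusters, which in the mouse lie on chromosomes 6, 11, 15 and 2. A gene was taken as a member where a probe set maps to 1 gene symbol made of Hox, a cluster letter and a paralog number, and 37 of the 19938 genes measured were members. Each member had 1 probe set, so none had to be chosen between probe sets. The Hoxa cluster gave 10 members, Hoxb 9, Hoxc 9 and Hoxd 9. Hoxb8 was left out because its probe set is shared with Hoxb7.

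Expression was measured on 12 arrays, 1 late and 1 early biopsy of a colon tumor in each of 6 mice. All mice, in both groups and at both times, came from an SWR x C57BL/6 cross (F1) and carried Apc Min/+, a germline truncation of the Wnt pathway inhibitor Apc, and all were given 4% dextran sodium sulfate (DSS), which injures the colon epithelium, in 2 treatments of 4 days with 17 days of water between them. After 30 days for tumors to form, tumors were viewed by colonoscopy every 14 days and sampled every 28 days. The tumors of mice 2201 (male), 3407 (female) and 3413 (male) were intramucosal carcinomas at the last biopsy, and those of mice 1755 (female), 1803 (male) and 1805 (male) were adenomas. The late biopsies were taken at 200 to 267 days of age in the carcinoma mice and 234 to 395 days in the adenoma mice, and the early ones at 87 to 117 days in the carcinoma mice and 86 to 94 days in the adenoma mice. The labels give no pathology for the early biopsies, which are called here by the final pathology of their mouse. Each group of 3 mice rests on 3 tumors, and no normal colon was analysed here.

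Hox proteins are transcription factors that give body regions their identity along the head-to-tail axis. Genes are numbered by their place in the cluster, and low numbers are generally expressed further forward than high numbers, those of group 13 being the most posterior. In the gut the posterior members are known from the hindgut, where Hoxa13 and Hoxd13 take part in shaping the distal colon and anorectum. Hox proteins bind DNA with Pbx and Meis partners, Cdx factors and retinoic acid act upstream of the clusters, and Polycomb and trithorax proteins hold the genes off or on.

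Posterior Hoxd genes carried the widest differences between these tumors, so the promoters of 3 of them and of Hoxa11, which ran in the opposite order, are shown first. Each is the RefSeq window on GRCm38.p6 of 250 bases before to 50 bases after the start of the gene, written 5′ to 3′ on the strand of the gene, and the capitals mark each CG dinucleotide, at which mammalian DNA is methylated.
Hoxd13 (chr2:74667975-74668274, plus strand): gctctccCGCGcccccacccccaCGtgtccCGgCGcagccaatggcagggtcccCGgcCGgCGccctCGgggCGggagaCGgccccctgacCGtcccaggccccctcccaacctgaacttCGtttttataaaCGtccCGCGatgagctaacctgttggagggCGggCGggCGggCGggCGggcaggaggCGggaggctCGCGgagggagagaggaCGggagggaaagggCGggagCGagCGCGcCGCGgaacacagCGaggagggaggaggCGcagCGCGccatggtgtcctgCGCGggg
Hoxd11 (chr2:74682073-74682372, plus strand): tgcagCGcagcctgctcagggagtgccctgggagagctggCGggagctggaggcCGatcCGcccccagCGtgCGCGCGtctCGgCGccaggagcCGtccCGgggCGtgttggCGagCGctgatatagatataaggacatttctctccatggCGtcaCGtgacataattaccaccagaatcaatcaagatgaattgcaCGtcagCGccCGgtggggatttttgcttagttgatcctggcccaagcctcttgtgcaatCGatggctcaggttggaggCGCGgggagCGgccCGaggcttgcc
Hoxd10 (chr2:74691641-74691940, plus strand): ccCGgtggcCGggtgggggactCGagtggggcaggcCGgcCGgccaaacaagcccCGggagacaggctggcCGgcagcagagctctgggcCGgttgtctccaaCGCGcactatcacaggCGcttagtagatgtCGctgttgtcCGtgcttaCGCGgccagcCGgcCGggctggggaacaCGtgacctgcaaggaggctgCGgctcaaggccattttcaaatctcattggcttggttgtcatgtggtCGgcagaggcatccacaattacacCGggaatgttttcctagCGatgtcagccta
Hoxa11 (chr6:52245761-52246060, minus strand): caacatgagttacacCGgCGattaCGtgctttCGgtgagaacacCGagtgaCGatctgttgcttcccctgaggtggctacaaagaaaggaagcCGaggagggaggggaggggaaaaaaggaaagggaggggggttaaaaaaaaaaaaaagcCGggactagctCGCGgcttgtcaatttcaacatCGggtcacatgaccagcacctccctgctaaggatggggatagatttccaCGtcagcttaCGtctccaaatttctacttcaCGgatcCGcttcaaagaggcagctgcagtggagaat

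The Hoxd13 window holds 37 CG, a count reached by 5.58% of the 32851 promoter windows of that table. The Hoxd11 window shown holds 25 (reached by 18.4%), that of Hoxd10 22 (23.1%) and that of Hoxa11 15 (34.6%). CG reads the same on both strands, and the median window holds 7. A second listed start of Hoxd11 holds 4 CG (68.6%). Hoxd12 holds 13 (37.9%), Hoxd9 20 (26.5%) and Hoxd8 6 (56.4%), and Hoxa13 on the other cluster holds 45 (1.93%). Of the 37 members, 21 had an entry, and Hoxb13 was not among them. The arrays measured no methylation, so the counts describe the sequence only.

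Detection differed by cluster. The 95th percentile of the 12-array means of 1027 olfactory receptor genes, which a colon tumor has little reason to transcribe, was used as the background level and lay at 6.84 log2. Of all genes, 14485 of 19938 (72.7%) had a mean above it, and 24 of the 37 Hox genes did. All 10 Hoxa genes and all 9 Hoxb genes were above background, none of the 9 Hoxc genes was, and in the Hoxd cluster 5 of 9 were, Hoxd9 to Hoxd13. The means nearest to the level were 6.90 for Hoxa2 and 6.96 for Hoxb5 inside it, and 6.67 for Hoxc9, 6.66 for Hoxd3 and 6.66 for Hoxc13 outside it. At the 99th percentile, 7.56 log2, 19 Hox genes stayed above. The brightness of 1 probe set cannot be set against that of another, so a dim gene may be a silent gene or a weak probe set.

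**Figure D1:**
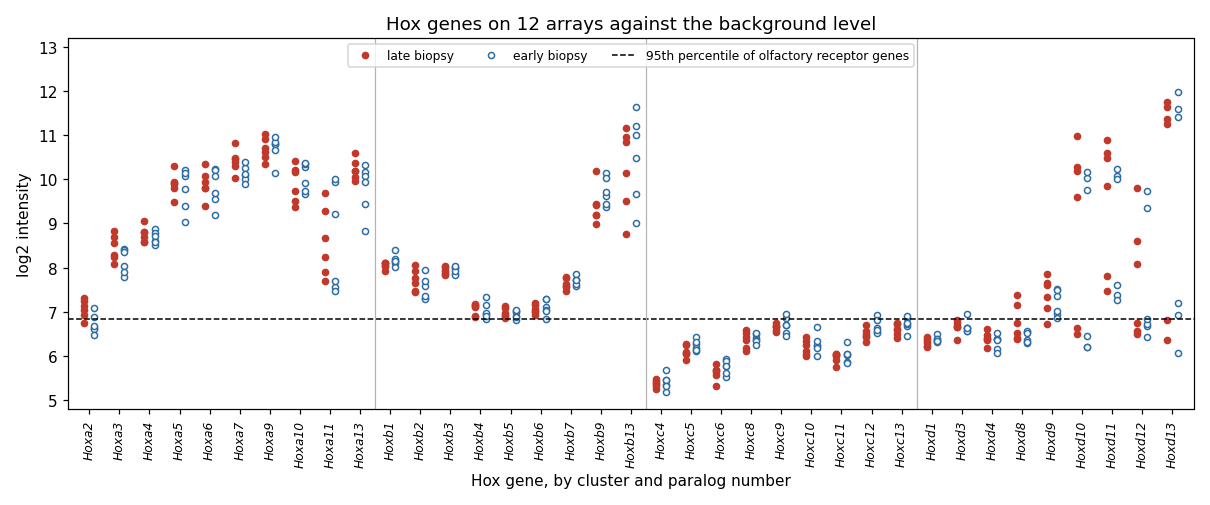
Log2 intensity of the 37 Hox genes (vertical axis) in cluster and paralog order (horizontal axis) on 6 late arrays (filled) and 6 early arrays (open), with the background of 6.84 log2 as a dashed line. All 9 Hoxc genes and Hoxd1 to Hoxd8 have their mean below the line, Hoxd10, Hoxd11, Hoxd12 and Hoxd13 spread from near the line to far above it, and heights of different genes are not comparable.

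The low-numbered Hoxd genes and the Hoxc genes were dim in every tumor. The highest single value of a Hoxc gene was 6.94 log2, for Hoxc9 in the early biopsy of mouse 1755. Hoxd8, with a mean below background, reached 7.15 in the late biopsy of mouse 1803 and 7.39 in that of mouse 1805, against at most 6.56 in the 6 early biopsies. Hoxc13, the posterior end of its cluster, ranged over 6.40 to 6.90 log2 across the 12 arrays.

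Among tumors, the 5′ end of the Hoxd cluster was either high or low. Hoxd13, the most posterior gene of the cluster, stood at 6.80, 11.76 and 11.25 log2 in the late biopsies of carcinoma mice 2201, 3407 and 3413, and at 6.36, 11.64 and 11.37 in those of adenoma mice 1755, 1803 and 1805. In the early biopsies it stood at 7.21, 11.59 and 6.93 in the same 3 carcinoma mice and at 6.07, 11.96 and 11.41 in the 3 adenoma mice. Mice 3407, 1803 and 1805 were thus high at both times, mice 2201 and 1755 low at both times, and mouse 3413 high in the late and low in the early biopsy. No array lay between 7.21 and 11.25, a gap of 4.05 log2 with 5 arrays below and 7 above. Both values of mouse 1755 and the late one of mouse 2201 lay under the background level of 6.84. All 5 low values lay under the 99th percentile of 7.56, so the size of the gap is not exact.

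Hoxd10 and Hoxd11, known from limb patterning, split the arrays in the same way. Hoxd10 had 6.64, 10.19 and 9.60 log2 in the late biopsies of carcinoma mice 2201, 3407 and 3413 and 6.50, 10.28 and 10.97 in those of adenoma mice 1755, 1803 and 1805, against 6.45, 10.02 and 6.203 in the early biopsies of the carcinoma mice and 6.21, 9.76 and 10.17 in those of the adenoma mice. Its widest gap was 2.96 log2, again with 5 arrays below and 7 above. Hoxd11 had 7.48, 10.49 and 9.85 log2 late in the 3 carcinoma mice and 7.81, 10.59 and 10.89 late in the 3 adenoma mice, against 7.60, 10.07 and 7.37 early in the carcinoma mice and 7.28, 10.02 and 10.22 early in the adenoma mice. Its widest gap was 2.03 log2 at the same place. The low values of Hoxd10 were all under the background level and those of Hoxd11 all over it.

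Hoxd12 followed this order less closely. It was high, at 8.08 to 9.79 log2, in both biopsies of mice 3407 and 1805 and in the late biopsy of mouse 1803, and lay at 6.44 to 6.83 on the other 7 arrays. In mouse 1803 it had 9.79 late and 6.83 early while Hoxd13 was high both times, and in mouse 3413 it stayed at 6.74 late and 6.44 early while Hoxd13 differed. Hoxd9 spanned less, 6.72 to 7.86 log2, with the 5 arrays low in Hoxd13 at or under 7.08 and the other 7 at or over 7.34.

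**Figure D2:**
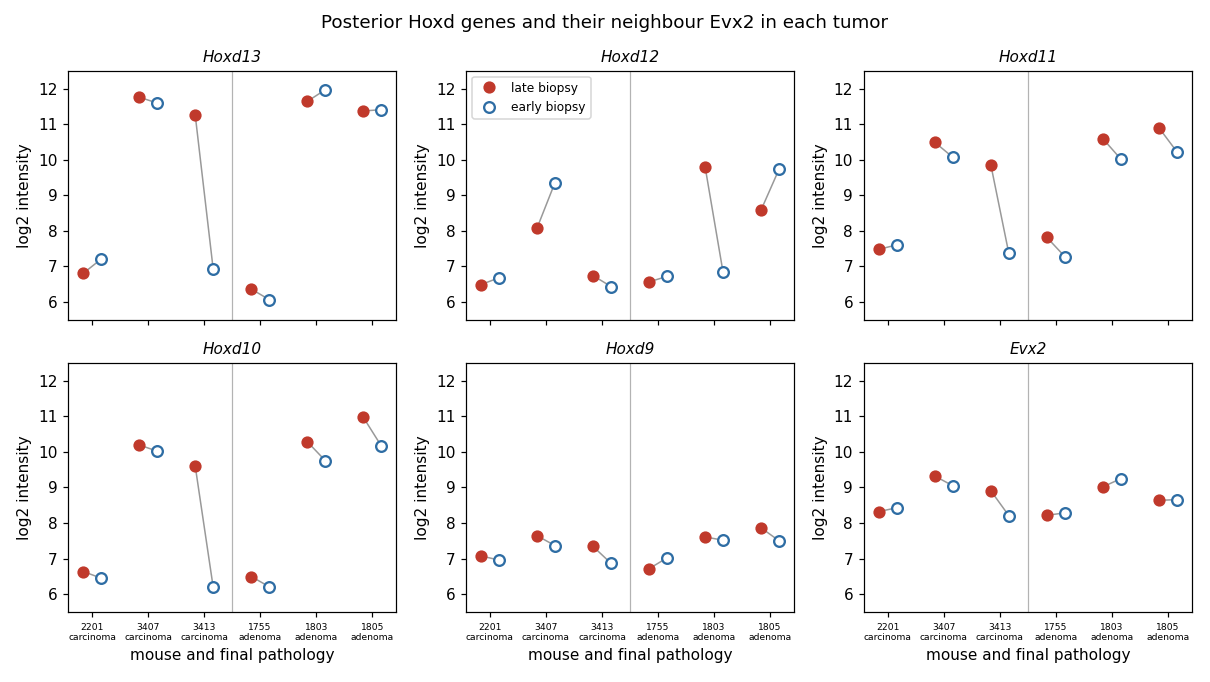
Log2 intensity of Hoxd13 to Hoxd9 and of Evx2 (vertical axis) in the late (filled, left) and early (open, right) biopsy of each mouse, carcinoma mice left of adenoma mice, with a line joining the biopsies of 1 tumor. Hoxd13, Hoxd11 and Hoxd10 are low at both times in mice 2201 and 1755 and differ between the biopsies in mouse 3413, and Hoxd12 differs in mouse 1803 instead.

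The spread of these genes was among the widest of all genes measured. By the SD over the 12 arrays, Hoxd13 (2.54 log2) ranked 4 of 19938 genes, Hoxd10 (1.96) ranked 17, Hoxd11 (1.47) ranked 62 and Hoxd12 (1.36) ranked 85, so that 4 of the 37 Hox genes were among the 100 widest. Hoxa11 (0.97) ranked 284 and Hoxb13 (0.94) ranked 309. The SD between the means of the 6 mice was 2.48 log2 for Hoxd13. The difference between the biopsies of a tumor had an SD of 1.81 log2 over the 6 mice. Its median size was 0.31 log2, and its largest 4.32, in mouse 3413. A biopsy holds many cell types in unknown shares, and fewer cells of a type and less RNA per cell cannot be told apart here.

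The order extended to the gene beside the cluster. The 5 arrays lowest in Hoxd13 were also the 5 lowest in Hoxd9, Hoxd10, Hoxd11 and Hoxd12, 4 of the other 36 Hox genes, against 0.181% of all genes (36 of 19938, Hoxd13 counted among them). In Hoxd12 the margin, the distance between the highest of the 5 and the lowest of the other 7, was 0.02 log2 and lay between values under the background level, so its order there is a rank within background. Evx2, a homeobox gene that lies next to Hoxd13, had 8.32, 9.32 and 8.90 log2 in the late biopsies of mice 2201, 3407 and 3413 and 8.22, 9.02 and 8.64 in those of mice 1755, 1803 and 1805, against 8.43, 9.05 and 8.21 in the early biopsies of the carcinoma mice and 8.29, 9.25 and 8.66 in those of the adenoma mice. The same 5 arrays were its lowest by a margin of 0.21 log2. Lnpk, the gene beyond Evx2, had the order by a margin of 0.03, and Atp5g3 and Gm10822 after it did not have it. On the other side of the cluster, Mtx2, Nfe2l2, Agps and Ttc30b, the 4 genes next to Hoxd1, did not have it.

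Of the Hoxa genes, 4 ran the other way. The same 5 arrays were the 5 highest in Hoxa5, Hoxa6, Hoxa10 and Hoxa11, 4 of 37 Hox genes, against 0.266% of all genes (53 of 19938). Hoxa11, known for roles in the uterus, kidney and forearm, had 9.69, 7.90 and 8.68 log2 in the late biopsies of mice 2201, 3407 and 3413 and 9.27, 8.24 and 7.69 in those of mice 1755, 1803 and 1805. The early biopsies gave 9.93, 7.56 and 9.21 in the carcinoma mice and 10.003, 7.71 and 7.46 in the adenoma mice. Its margin was 0.53 log2, against 0.14 for Hoxa6, 0.04 for Hoxa10 and 0.03 for Hoxa5. Hoxa13, Hoxa9, Hoxa7, Hoxa4, Hoxa3 and Hoxa2 did not have this order.

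**Figure D3:**
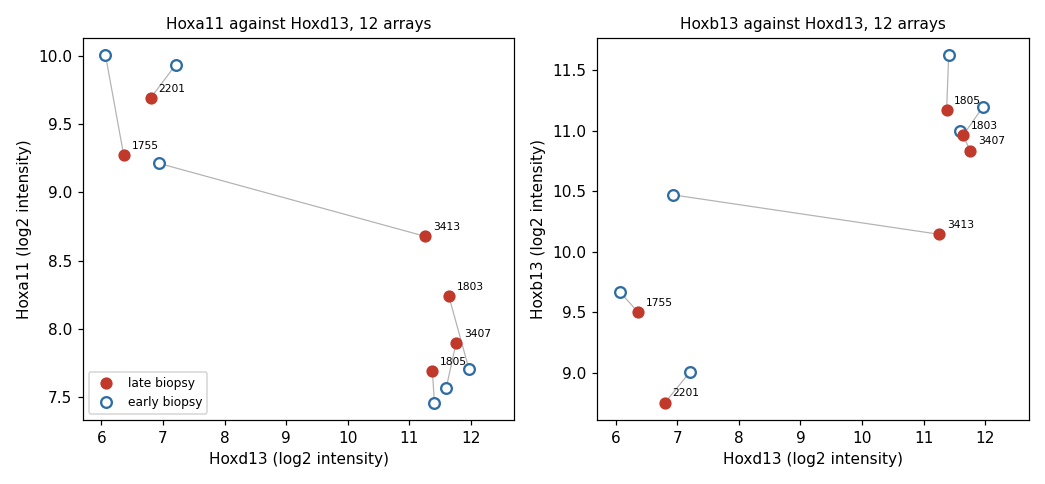
Log2 intensity of Hoxa11 (left) and Hoxb13 (right) on the vertical axis against Hoxd13 on the horizontal axis on 12 arrays, late filled and early open, with a line joining the biopsies of each numbered mouse. The 5 arrays with Hoxd13 at or under 7.21 log2 are the 5 highest in Hoxa11, while Hoxb13 is low in mice 2201 and 1755 and intermediate in mouse 3413.

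Hoxb13, the posterior end of the Hoxb cluster and a gene known from prostate and distal colon, was low where Hoxd13 was low at both times. Its lowest values were 8.75 late and 9.004 early in mouse 2201, then 9.501 late and 9.67 early in mouse 1755. Mouse 3413 had 10.14 late and 10.47 early, and mice 3407, 1803 and 1805 had 10.84 to 11.17 late and 11.001 to 11.63 early. In mouse 3413 the late biopsy, high in Hoxd13, was the lower of the pair in Hoxb13, so the order of the 5 arrays did not hold for Hoxb13.

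Neither pathology nor sex separated the tumors by these genes. Each pathology had Hoxd13 high in 2 of 3 late biopsies, and of the mice low at both times 1 was a male with carcinoma and 1 a female with adenoma. Late carcinoma against late adenoma differed by 0.15 log2 in Hoxd13 (SE 1.90, adjusted p = 0.988, limma), and the early biopsies of the same mice by -1.24 (SE 1.90, adjusted p = 0.828, limma). The submitters' own sample numbers fall into 155 to 255 for 4 early arrays (mice 2201, 1755, 1803 and 1805) and 319 to 379 for the other 8 arrays, and both ranges hold arrays high and low in Hoxd13. The 2 arrays of mice 3407 and 3413 thus lie in 1 range, and the pairs of the other 4 mice cross the ranges. What the numbers mark is not stated. None of the 10 lists of cell type markers had the 5 Hoxd13-low arrays as its 5 lowest or 5 highest, and the closest was the mast cell list with 4 of them among its 5 highest. Only 0.181% of all genes had the 5 Hoxd13-low arrays as their 5 lowest, and 0.266% as their 5 highest. A list without either order thus says little on cell shares, and the part of these lists was not tested. Outside the clusters, Klk15, Fut9 and Lix1 had the order with margins of 0.96, 0.90 and 0.46 log2, and Me1 its reverse with 0.35, all named after their values were seen.

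The Hoxd13 difference in mouse 3413 was the widest of any Hox gene within a tumor. Late minus early was 4.32 log2 in Hoxd13, 3.40 in Hoxd10 and 2.48 in Hoxd11, while in the other 5 mice these differences ran from -0.40 to 0.30, from 0.17 to 0.80 and from -0.12 to 0.67. The early Hoxd10 value, 6.203, lies under the background level, so the size of the Hoxd10 difference is not exact. The early Hoxd13 value, 6.93, lies close above that level of 6.84, so the size of its difference is not exact either. Both arrays of mouse 3413 lie in the range 319 to 379. In that mouse the marker list of epithelium stood at 12.69 log2 late and 12.67 early, that of fibroblasts and matrix at 11.38 late and 11.95 early, that of smooth muscle at 9.47 late and 10.14 early, and that of neutrophils at 9.11 late and 7.997 early. The mast cell list stood at 9.12 late and 10.12 early, and that of squamous epithelium at 7.81 late and 8.33 early. The other 4 lists differed by -0.15 (endothelium), 0.15 (leukocytes), -0.05 (macrophages) and -0.10 (nerve and glia). The part of these lists in the Hoxd values was not tested.

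**Figure D4:**
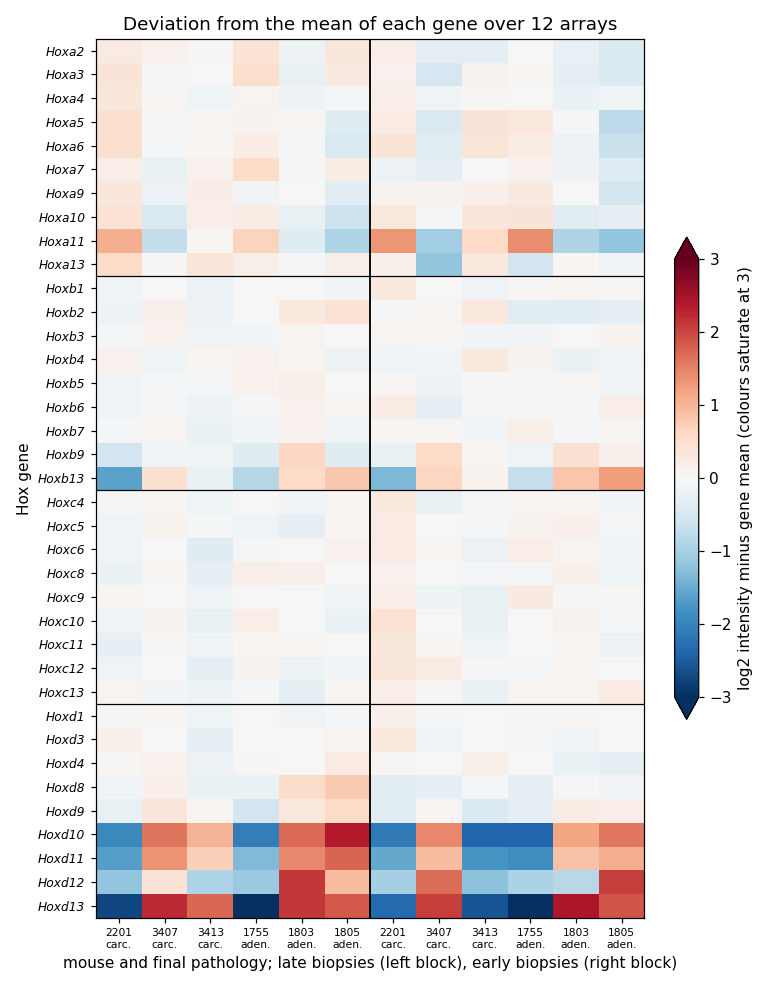
Log2 intensity minus the 12-array mean of the gene (colour) for the 37 Hox genes (rows, by cluster) on 6 late arrays (left block) and 6 early arrays (right block), carcinoma mice left of adenoma mice in each block. Hoxd10 to Hoxd13, Hoxa11 and Hoxb13 vary from tumor to tumor, and the Hoxc genes and Hoxd1 to Hoxd4 stay close to their means.

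Late biopsies were next set against early ones over the 6 tumors, with the mouse as a block, to ask whether Hox genes shift as a tumor ages. No Hox gene passed limma at an adjusted p under 0.05, as no gene of the whole array did (0%), and 8 of 37 had an unadjusted p under 0.05 (6 higher, 2 lower in late), against 14.7% of all genes. The 8 became 4 without mouse 3407 and 5 without mouse 1805. The median Hox difference was -0.01 log2, against -0.02 over all genes. By cluster, 7 of 10 Hoxa, 3 of 9 Hoxb, 0 of 9 Hoxc and 7 of 9 Hoxd genes were higher in late biopsies on average. Over all genes, 8394 of 19938 were. The Hoxc genes all lay below background, and the 5 Hoxd genes above background were all higher late on average. By tumor, Hoxd13 was higher late in 3 of 6 and Hoxd12 in 2 of 6. The Hoxd13 mean of 0.67 log2 holds the 4.32 of mouse 3413.

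Hoxb13 had the smallest p among the members and was lower late in 6 of 6 tumors. It averaged 10.23 ± 0.95 log2 late and 10.50 ± 0.99 early (SD, n = 6 each), a difference of -0.27 (SE 0.0558, limma unadjusted p = 0.0016, adjusted p = 0.207). The late and early groups overlap over most of their range, and the difference is seen within tumors only. It was -0.28 ± 0.12 (SD) in the 4 pairs that cross the ranges of sample numbers and -0.25 in the 2 pairs within 1 range, of mice 3407 and 3413. Without the mouse as a block the adjusted p was 0.918.

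Hoxb9, a trunk gene of the same cluster, was lower late in 5 of 6 tumors, at 9.41 ± 0.42 log2 late and 9.72 ± 0.31 early (difference -0.31, SE 0.109, adjusted p = 0.278, limma). Mouse 1803 was the exception, with 10.19 late and 10.02 early. Hoxb1, the hindbrain gene at the other end of the cluster, differed by -0.12 (SE 0.0613, adjusted p = 0.403, limma) and was lower late in 5 of 6.

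On the Hoxa side the leading members averaged higher late. Hoxa7, a thoracic patterning gene, averaged 10.41 ± 0.25 log2 late and 10.12 ± 0.18 early and was higher in 6 of 6 tumors (difference 0.29, SE 0.0808, adjusted p = 0.251, limma). Hoxa2, a hindbrain and branchial arch gene, averaged 7.07 ± 0.21 late and 6.73 ± 0.22 early, also higher in 6 of 6 (0.34, SE 0.098, adjusted p = 0.255, limma). Its early mean and 4 of its 6 early values lie under the background level of 6.84, so it counts as above background only through its late values, and the size of its difference is not exact. Hoxa3, its neighbour, was higher in 5 of 6 (0.30, SE 0.105, adjusted p = 0.286, limma). The Hoxa7 difference was 0.39 ± 0.17 (SD, n = 4) in the pairs that cross the ranges of sample numbers and 0.09 in the 2 within 1 range, that of Hoxa3 was 0.36 and 0.17, and that of Hoxa2 was 0.33 and 0.36.

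Hoxa13 had 10.60, 10.05 and 10.37 log2 in the late biopsies of mice 2201, 3407 and 3413 and 10.20, 9.97 and 10.20 in those of mice 1755, 1803 and 1805. The early biopsies had 10.15, 8.82 and 10.33 in the carcinoma mice and 9.45, 10.08 and 9.94 in the adenoma mice. It was higher late in 5 of 6 tumors, by 0.43 log2 (SE 0.170, adjusted p = 0.309, limma), most of all in mouse 3407, by 1.23. Hoxd11 differed by 0.76 (SE 0.297, adjusted p = 0.309, limma), a mean that holds the 2.48 of mouse 3413, and Hoxc13 by -0.13 (SE 0.0592, adjusted p = 0.347, limma) at values about the background.

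**Figure D5:**
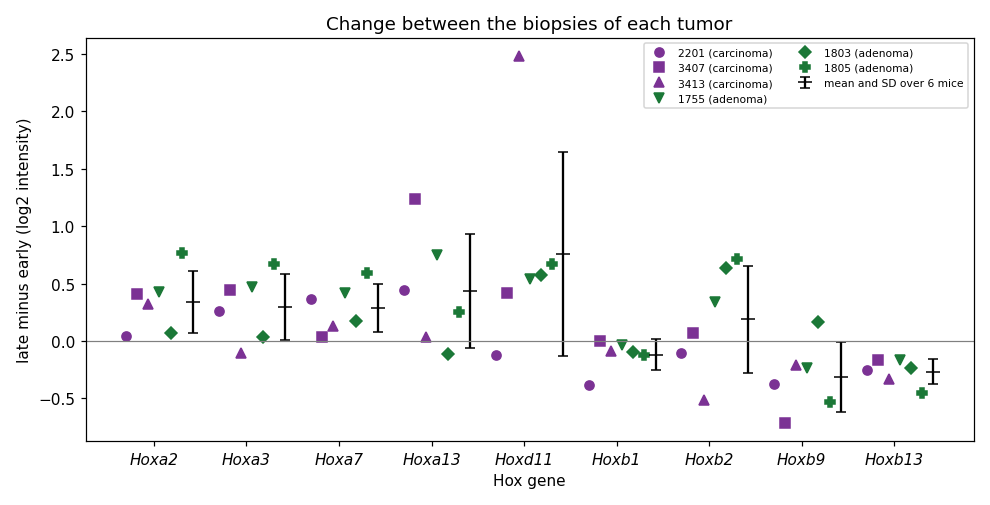
Late minus early log2 intensity (vertical axis) of 9 Hox genes (horizontal axis) in each of 6 mice, 1 symbol per mouse, carcinoma purple and adenoma green, with the mean and SD over the 6 mice in black. All 6 points of Hoxb13 lie below 0 and all 6 of Hoxa2 and Hoxa7 above 0, while Hoxb2 is above 0 in the 3 adenoma mice and between -0.51 and 0.07 in the carcinoma mice.

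Stromal and blood vessel markers also averaged higher in the late biopsies, with 0 of them past the adjusted threshold in limma and 4 of 8 fibroblast and matrix and 6 of 7 endothelial markers at an unadjusted p under 0.05. The mean log2 intensity of the 8 fibroblast and matrix markers ran from 11.21 to 11.76 late and from 9.81 to 11.95 early, with 8 of 8 genes higher late on average, and that of the 7 endothelial markers from 9.97 to 10.47 late and from 8.54 to 10.37 early, with 7 of 7 higher. All 7 smooth muscle, 4 leukocyte, 5 neutrophil and 5 macrophage markers were higher late on average too, and 4 of 5 mast cell markers were lower. The 8 epithelial markers were all above background and ran from 12.67 to 13.18 late and from 12.62 to 13.004 early, and are markers of the tissue the labels name. Of the nerve and glia markers 1 of 3 measured was above background, and of the 5 squamous epithelium markers, all above background, 2 averaged higher late. The part of these lists in the Hox differences was not tested.

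Taken by pathology, no Hox gene passed in either set of tumors. In the 3 carcinoma tumors 3 of 37 Hox genes had an unadjusted p under 0.05 in limma (all lower late), against 4.3% of all genes, and 0% of all genes passed after adjustment. The 3 became 5 without mouse 1755. In the 3 adenoma tumors the counts were 7 of 37 (5 higher, 2 lower late), against 18% of all genes, and 0.125% of all genes (25) passed after adjustment. The 7 became 2 without mouse 1805 and 3 with the range of sample numbers as a term. The median Hox change was -0.05 log2 in carcinoma tumors and 0.05 in adenoma tumors, against -0.03 in carcinoma and -0.01 in adenoma tumors over all genes.

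Hoxb2, which patterns the hindbrain, had the smallest p among the members in the adenoma change and in the difference between the changes. It had 7.48, 7.77 and 7.44 log2 in the late biopsies of carcinoma mice 2201, 3407 and 3413, against 7.58, 7.70 and 7.95 in their early biopsies. In adenoma mice 1755, 1803 and 1805 it had 7.65, 7.92 and 8.06 late, against 7.31, 7.28 and 7.35 early. The change was -0.18 ± 0.30 log2 in carcinoma tumors and 0.56 ± 0.20 in adenoma tumors (SD, n = 3 each), and limma gave the adenoma change an adjusted p of 0.118 (SE 0.130). The early adenoma values and the late values of mice 2201 and 3413 lie under 7.56 log2, the 99th percentile of background. The sizes of these changes are therefore not exact. The difference between the changes was -0.74 (SE 0.183, unadjusted p = 0.0053, adjusted p = 0.621, limma). Marker lists differed in the same tumors, with 0 markers past the adjusted threshold in limma. In adenoma tumors 5 of 5 neutrophil markers (median 1.80 log2), 7 of 7 endothelial (1.42) and 8 of 8 fibroblast and matrix markers (0.95) averaged higher late, and 5 of 5 mast cell markers lower (-1.48). At an unadjusted p under 0.05 were 5 of these neutrophil, 7 endothelial, 6 fibroblast and matrix and 2 mast cell markers in adenoma tumors, and none in carcinoma tumors. In carcinoma tumors the medians were 0.16, 0.43, 0.23 and -0.89. The difference between the changes was below 0 in 5 of 5 neutrophil markers (median -1.85), 7 of 7 endothelial (-0.90), 8 of 8 fibroblast and matrix (-0.74), 7 of 7 smooth muscle (-0.38) and 5 of 5 squamous markers (-0.63), and above 0 in 5 of 5 mast cell markers (0.70). Of these, 4 neutrophil, 2 endothelial, 2 fibroblast and matrix and 1 smooth muscle marker had an unadjusted p under 0.05. Their part in the Hoxb2 values was not tested.

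In the difference of the changes 1 of 37 Hox genes had an unadjusted p under 0.05, Hoxb2, against 7.04% of all genes, and 0% passed after adjustment. The count became 2 without mouse 1755, without mouse 3407 and with the range of sample numbers as a term. Hoxa7 and Hoxb5 were the next lower members (-0.22 and -0.16 log2), both with an adjusted p of 0.775 (limma). Hoxd9, Hoxd13 and Hoxd10 led the other direction, at 0.24 (SE 0.192), 1.38 (SE 1.16) and 0.71 (SE 0.843), with adjusted p = 0.800, 0.808 and 0.866 (limma). Without mouse 3413 the values of Hoxd13 and Hoxd10 turned to -0.10 and -0.36, so their direction rested on that tumor. The late biopsies were taken at an older mean age in adenoma than in carcinoma mice (333 against 227 days). The part of age and of the time between biopsies in the difference of the changes was not tested.

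Hoxb13 was lower late in all 3 tumors of each pathology. Its late minus early value was -0.25 ± 0.08 log2 in carcinoma tumors (adjusted p = 0.952, limma) and -0.29 ± 0.15 in adenoma tumors (SD, n = 3 each, adjusted p = 0.163, limma). The other leading members in carcinoma tumors were Hoxb9 (-0.43) and Hoxb1 (-0.15) below 0 and Hoxa13 (0.57), Hoxd9 (0.29) and Hoxd11 (0.92) above it, all with an adjusted p of 0.952 (limma). Those in adenoma tumors were Hoxa7 (0.40, adjusted p = 0.141) and Hoxa2 (0.42, adjusted p = 0.203, with its early adenoma mean of 6.68 under background) above 0, and Hoxb9 (-0.20, adjusted p = 0.549) and Hoxa10 (-0.15, adjusted p = 0.589) below it (limma). All 3 adenoma pairs cross the ranges of sample numbers, so the change in adenoma and the numbers cannot be told apart within that group.

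Carcinoma was set against adenoma at each time to ask whether Hox levels go with the outcome. The late biopsies were taken at a mean age of 227 days in carcinoma and 333 days in adenoma mice. Age was not a term in the fit, so pathology and age cannot be fully told apart in the late comparison. Among late biopsies 2 of 37 Hox genes had an unadjusted p under 0.05 (both lower in carcinoma), against 11.7% of all genes, and 0 passed after adjustment (0% of all genes, limma). The 2 became 0 without mouse 1803, 2201 or 3413 and with dim genes left out, and 1 without mouse 1805 and with the range of sample numbers as a term. All 9 Hoxb genes were lower on average in late carcinoma (8 of 9 after renewed quantile normalization), with a median of -0.14 log2, and 7 of 10 Hoxa genes higher, with a median of 0.22, against 0.02 over all genes. Of all 19938 genes, 9134 were lower and 10802 higher. Hoxb4 (-0.003, SE 0.134), Hoxb3 (-0.02, SE 0.0851) and Hoxb7 (-0.02, SE 0.106) were lower by little against their SE. Hoxb2 led with a difference of -0.31 (SE 0.140, adjusted p = 0.424, limma), its values in mice 2201 and 3413 lying under the 99th percentile of background. Then came Hoxb5 (-0.16, adjusted p = 0.473) and Hoxa7 (-0.24, adjusted p = 0.579, limma). In the same arrays the mean of the 8 epithelial markers ran from 12.67 to 12.74 log2 in carcinoma and from 12.72 to 13.18 in adenoma (8 of 8 lower on average), and that of the 7 smooth muscle markers from 9.47 to 9.69 in carcinoma and from 9.64 to 10.11 in adenoma (7 of 7 lower). The neutrophil markers (5 of 5, median -0.73) and squamous markers (5 of 5, -0.49) also averaged lower in carcinoma, and the mast cell markers (5 of 5, 0.86) and 4 of 5 macrophage markers (0.56) higher. The part of these lists was not tested. Hoxa9, Hoxa6 and Hoxa4 led upward, at 0.26, 0.26 and 0.13, with adjusted p = 0.614, 0.713 and 0.715 (limma).

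Among early biopsies 1 of 37 Hox genes had an unadjusted p under 0.05, Hoxb2, against 12% of all genes, and 0 passed after adjustment (0% of all genes, limma). The count became 3 without mouse 1755, 2 without mouse 2201, 3407 or 3413 and 4 with the range of sample numbers as a term. Hoxb2 was higher by 0.43 log2 in the mice that later had carcinoma (SE 0.140, adjusted p = 0.302, limma), at 7.58 to 7.95 in these and 7.28 to 7.35 in the adenoma mice. The adenoma values lie under 7.56 log2, the 99th percentile of background, so the size of this difference is not exact. Hoxa6 (0.35) and Hoxa4 (0.15) followed, with adjusted p = 0.592 and 0.651, and Hoxd9 (-0.28), Hoxb13 (-0.67) and Hoxd10 (-1.15) led downward, with adjusted p = 0.6999, 0.708 and 0.781 (limma). The 3 early adenoma arrays and 1 of the 3 early carcinoma arrays lie in the lower range of sample numbers. With the range as a term the Hoxb2 difference was 0.30, a value that rests mainly on that 1 carcinoma array, of mouse 2201. The late arrays all lie in the higher range. Endothelial markers ran from 9.09 to 10.37 log2 in these early carcinoma arrays and from 8.54 to 9.05 in the early adenoma arrays (7 of 7 higher on average), and fibroblast and matrix markers from 10.53 to 11.95 in the carcinoma and from 9.81 to 10.82 in the adenoma arrays (8 of 8 higher). Neutrophil markers ran from 7.997 to 9.11 in the carcinoma and from 7.08 to 7.83 in the adenoma arrays (5 of 5 higher, median 1.18). Of the macrophage markers 5 of 5 averaged higher (median 0.37), and of the epithelial markers 7 of 8 lower (-0.20). The part of these lists was not tested.

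The genes that act with or upstream of the clusters gave no call either. Of 54 listed genes 47 were measured, and 0 passed limma after adjustment in any of the 6 comparisons. Rarb, a retinoic acid receptor, was lower late in 6 of 6 tumors, by 1.43 log2 (SE 0.251, adjusted p = 0.206, limma), at 8.25 to 10.34 late and 10.10 to 11.03 early. In adenoma tumors its change was -1.74 (SE 0.338, adjusted p = 0.0969, limma). Meis1, a Hox cofactor, was 0.31 higher late (adjusted p = 0.285) and Cbx8, a Polycomb protein, had a difference of -0.25 (adjusted p = 0.270, limma). Of 14 measured chromatin regulators 12 were lower late on average (11 relative to the median of all genes), and of 8 TALE cofactors (Pbx, Meis and Pknox) 5 were higher. So were 6 of 10 retinoic acid genes, 1 of 3 Cdx genes, 2 of 3 ParaHox genes, 1 of the 2 Evx neighbours and 2 of 7 noncoding genes of the clusters.

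Between pathologies, 13 of 14 chromatin regulators were higher on average in late carcinoma, and 8 of 14 in early carcinoma (7 relative to the median of all genes). Kmt2a, the trithorax methyltransferase that keeps Hox genes on, had 10.94, 10.79 and 10.88 log2 in the late carcinoma biopsies and 10.54, 10.52 and 10.40 in the late adenoma biopsies. The difference was 0.39 (SE 0.0905, adjusted p = 0.401, limma), and it was 0.37 in the early biopsies (adjusted p = 0.241, limma). Men1, its partner menin, was 0.28 higher in late carcinoma, and Aldh1a3, which makes retinoic acid, and Cyp26b1, which breaks it down, had differences of -1.68 and -0.46, each with an adjusted p of 0.401 (limma). Cdx1 and Cdx2 were lower on average in carcinoma at both times, and Cdx4 lay at 3.97 to 4.53 log2 on the 12 arrays, under the background level. In the early biopsies the caudal gene Cdx1 differed by -0.73 and the Polycomb gene Bmi1 by -0.34, with adjusted p = 0.322 and 0.315 (limma). Hottip, the noncoding gene beside Hoxa13, had a late minus early value of 0.67 in carcinoma tumors (adjusted p = 0.952, limma).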

How the data were processed

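Biopsies of colon tumors of 6 mice were measured on 12 Affymetrix arrays, from 300 ng of RNA each labelled with the Ambion WT Expression kit, per the labels. The deposited values were read as log2 intensities from their range, and the authors' summarisation and normalisation steps are not given in the sources used here. Array medians ran from 7.62 to 7.80. Of 35557 probe sets, 21789 carry 1 symbol, 1621 several and 12147 none, and for each gene the one with the highest mean was kept, which left 19938 genes. All 37 Hox genes were matched to RefSeq by gene identifier. No gene was filtered out by its level, and the number of arrays limits the precision.

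Models were fitted with limma 3.58.1 under R 4.3.3 (2-sided moderated test after eBayes, Benjamini-Hochberg over 19938 genes, threshold 0.05) for 6 comparisons. Late against early, the change in each pathology and the difference of the changes had the mouse as a fixed block (residual degrees of freedom 5 for the first and 4 for the others). Carcinoma against adenoma at each time was a fit of 4 groups with the mouse as a random block (consensus correlation 0.286, residual degrees of freedom 8). SE is that of limma and ± is the SD over mice. With the mouse as a fixed block, the p-values rest on the spread of the late minus early differences over these 6 tumors. Those of carcinoma against adenoma rest on the spread of the arrays within the 4 groups. The pairing comes from the animal: deviations from the group means correlated between the late and early array of each animal (r from 0.110 to 0.527, 6 of 6 over 0.1). Of the 6 early arrays, 5 were best matched by the late array of their own animal. That of mouse 2201 (r = 0.110) was not. The recorded sex matched on 12 of 12 arrays. The script was tested on simulated data.

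In each comparison the 3 Hox genes above background with the smallest unadjusted p in each direction were named, as were the 4 genes of paralog group 13 and up to 2 related genes per direction. Array orders were described without a test. The members, lists and rules were chosen with earlier results of these data known. Alternatives were no block, an intensity trend, no dim genes, the mean of probe sets, centring, quantile normalization, the range of sample numbers as a term and each mouse left out.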

Additional observations from a re-analysis of the deposited data

Results flagged for a closer look

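In the 24 Hox genes above background, the late values, the early values and the late minus early differences of the 6 mice were each searched for 1 value far from the other 5, in 72 sets of 6. The gap to the nearest other value exceeded the 95% limit of Dixon's ratio in 8 sets, and chance flags about 1 in 20. The sets share mice and neighbouring genes, so they are not independent.

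Mouse 3413 had 4 of these values. Its late minus early difference was 4.32 log2 in Hoxd13 (the other mice -0.40 to 0.30), 3.40 in Hoxd10 (0.17 to 0.80), 2.48 in Hoxd11 (-0.12 to 0.67) and -0.20 in Hoxa4 (0.05 to 0.20). The early Hoxd10 value of mouse 3413 lay under the background level and its early Hoxd13 value, 6.93, close above it. The sizes of the Hoxd10 and Hoxd13 differences are therefore not exact. Mouse 1803 had 2, a difference of 2.96 log2 in Hoxd12 (the others -1.28 to 0.31, with its early value under the background level) and a late Hoxb9 of 10.19 log2 (the others 8.99 to 9.44). Mouse 2201 had a difference of -0.38 log2 in Hoxb1 (the others -0.12 to 0.00). Mouse 1805 had an early Hoxa9 of 10.14 log2 (the others 10.67 to 10.96).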

How the results depend on the processing

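No Hox gene passed at an adjusted p under 0.05 in any of the 6 comparisons under any of the 13 alternatives. Of 468 values of the named genes (36 results under 13 alternatives), 464 kept their direction, and the lowest adjusted p was 0.107. The 4 exceptions were in the difference of the changes: with the range of sample numbers as a term Hoxd13 was -0.38 log2 and Hoxd10 -0.35, and over the leave-one-out fits Hoxd13 ran from -0.10 (without mouse 3413) to 2.26 and Hoxd10 from -0.36 (without mouse 3413) to 1.25. The same term moved the median Hox change in adenoma tumors to 0.20 log2 and the median difference of the changes to -0.21. In these fits the term is set by mouse 2201, the only carcinoma mouse whose pair crosses the ranges. The cause was not tested. In the paired check, leaving out the mouse as a block kept the median Hox difference of late against early at -0.01 log2 and left 2 of 37 Hox genes at an unadjusted p under 0.05, against 8 with it. Over all genes, the 25 calls in adenoma tumors became 57 with arrays centred, 2 without the block, 0 with the range as a term, and 0 to 78 over the leave-one-out fits (78 without mouse 2201). Without mouse 1803, 395 genes passed between late carcinoma and late adenoma and 67 between the early biopsies, against 0 with all mice, and none was a Hox gene. Hox genes near background have little room to fall, so a lower level there would not be seen.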
